A study of Mus musculus with 2 samples.

Results

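The genes described here are 35 genes of the endoplasmic reticulum (ER) stress response and of protein folding in the secretory pathway, chosen by symbol from a given list and all found among the 33696 genes of the matrices. By role they were 11 chaperones and cochaperones, 7 disulfide and proline isomerases or oxidases, 7 stress sensors and transcription factors, 8 genes of ER-associated degradation and 2 genes of the translocon. Their UMIs (unique molecular identifiers, each standing for 1 captured RNA molecule) were summed per cell type and library from droplet-based scRNA-seq of mouse abdominal aorta. A level is the sum as CPM, scaled to all UMIs of the cell type. Each UMI comes from the 3′ end of 1 molecule, so levels were not divided by transcript length. For *Ddit3*, which 2 gene identifiers share, 1 identifier carried every UMI.

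Aortas came from 5-month-old male C57BL/6J mice on day 28 of saline (Control) or of angiotensin II with high salt in the drinking water (AngII+HS), a model of abdominal aortic aneurysm. There was 1 library per condition. The design text gives 5 pooled mice per library, while the extraction protocol speaks of fewer, so the number of animals behind each library is uncertain. No difference between the libraries therefore has a replicate check, and no test or p-value is given. Intervals are 95% exact Poisson intervals for levels and exact binomial (Clopper-Pearson) intervals for ratios, and cover counting error only. The Control library kept 10269 cells (median 7274 UMIs) and the AngII+HS library 19734 cells (median 3065.5 UMIs), after removal of 9.03% and 19.6% of cells as likely doublets. The median share of mitochondrial UMIs was 3.57% in Control and 1.06% in AngII+HS cells. The barcode lists recorded with the 2 samples share 67 barcodes, and each has the length of the other sample's matrix, so they were left aside. Were the matrices swapped, every difference between Control and AngII+HS given here would reverse. VSMCs made up 49.3% of the cells of the matrix taken as Control and 3.39% of those taken as AngII+HS, and neutrophils 0.964% and 23.6%.

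Proteins that enter the ER are threaded through the translocon, bound by chaperones such as BiP (*Hspa5*) and GRP94 (*Hsp90b1*), and joined by disulfide bonds through protein disulfide isomerases. When unfolded protein accumulates, the sensors IRE1 (*Ern1*), PERK (*Eif2ak3*) and ATF6 start the unfolded protein response, in which XBP1 and ATF6 raise chaperones and degradation genes while ATF4 raises *Ddit3* and *Trib3*. Plasma cells, which secrete antibody, depend on XBP1, and fibroblasts pass large amounts of procollagen through the same organelle. Splicing of *Xbp1* and cleavage of ATF6, the active forms, cannot be read from gene counts.

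Sequences of the ER stress response element are shown because they mark genes that ATF6 and XBP1 are known to act on, and the members were compared below by whether they hold it. RefSeq promoters (build GRCm38.p6, 250 bases before to 50 after the start) were found for 31 of the 35 members, and not for *Derl1*, *Hyou1*, *Manf* and *Atf6*. The element, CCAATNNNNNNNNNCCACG on either strand, was present in 10 of the 31 (32.3%) and in 35 of 27025 promoters in all (0.130%). The 10 were *Hspa5*, *Calr*, *Derl3*, *Hsp90b1* (2 matches that do not overlap), *Canx*, *Pdia6*, *Ero1b*, *Dnajc3*, *Creld2* and *Syvn1*. A second form, ER stress response element II, was found in *Herpud1* and *Dnajb11*. The unfolded protein response element TGACGTGG was in none of the 31 (0.607% of all promoters), and the C/EBP-ATF response element TGATGCAA was in *Herpud1* alone (0.929% of all promoters). Windows are given for 5 members at least 1.5-fold lower in AngII+HS fibroblasts, followed by *Calr* and *Pdia6*, which hold the element and were not, with each gene's own strand read 5′ to 3′ and the matches in capitals. A match that starts with CGTGG is on the opposite strand. The windows lie on GRCm38.p6, Hspa5 at chr2:34772015-34772053 (plus strand), Hsp90b1 at chr10:86705523-86705666 (minus strand), Dnajc3 at chr14:118937817-118937855 (plus strand), Creld2 at chr15:88819510-88819548 (plus strand), Derl3 at chr10:75893232-75893270 (plus strand), Calr at chr8:84847065-84847103 (minus strand) and Pdia6 at chr12:17266481-17266519 (plus strand).
Hspa5: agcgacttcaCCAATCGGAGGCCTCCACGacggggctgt
Hsp90b1: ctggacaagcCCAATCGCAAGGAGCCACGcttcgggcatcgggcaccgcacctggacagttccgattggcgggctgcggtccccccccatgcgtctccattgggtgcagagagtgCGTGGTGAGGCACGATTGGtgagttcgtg
Dnajc3: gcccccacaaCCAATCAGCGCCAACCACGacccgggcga
Creld2: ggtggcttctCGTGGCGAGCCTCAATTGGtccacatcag
Derl3: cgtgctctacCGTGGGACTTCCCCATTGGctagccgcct
Calr: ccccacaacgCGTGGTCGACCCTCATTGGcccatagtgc
Pdia6: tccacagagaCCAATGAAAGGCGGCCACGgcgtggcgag
In *Hspa5* the match lay 65 to 47 bases before the transcription start, and in *Calr* 162 to 144 bases before it. A match describes letters in this window and not a bound site.

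Cells were clustered without the 35 genes, and 23 of the 26 clusters were named after a cell type by their marker genes. The names mean cells like that type and are written without the suffix. No member was among the markers. The defining markers were present in the types described here: the 6 fibroblast markers summed to 18033 CPM in Control and 38227 CPM in AngII+HS fibroblasts, the 5 VSMC markers to 27338 and 38409 CPM in vascular smooth muscle cells (VSMCs), and the 7 plasma cell markers to 21115 CPM in plasma cells. The 1921 Control and 4245 AngII+HS fibroblasts, 5062 and 669 VSMCs, 838 and 1203 vascular endothelial cells (VECs), and 165 plasma cells of the AngII+HS library are described in turn. The Control library held 0 plasma cells among 10269, a count that would allow at most 0.0292% of its retained cells. The Control library held 4 when no doublets were removed and 1 when the libraries were merged without integration.

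Summed over the 35 genes, plasma cells had the highest level, 17792 CPM or 1.78% of their UMIs. Fibroblasts were highest in Control, with 10143 CPM, and came next after plasma cells in AngII+HS, with 7728 CPM. The place of plasma cells above Control fibroblasts depended on the doublet setting. In the 26 plasma cells left with double the doublets removed, described below, the sum was 8951 CPM. That lies between the fibroblast values, which are given without this further removal. VECs held 5476 and 6185 CPM, and VSMCs 4257 and 4790 CPM. Neutrophils were lowest, with 1583 CPM in Control and 2653 CPM in AngII+HS. In the Control library 24 of the 35 members reached their highest level in fibroblasts, against 7.74% of 17756 genes. Examples with the largest lead over the next cell type were *Manf* (2.82 times), *Creld2* (2.81 times), *Pdia4* (2.48 times), *Selenos* (2.21 times) and *Hyou1* (2.18 times). In the AngII+HS library 22 of 35 were highest in plasma cells, against 4.55% of 18627 genes, and *Pdia3*, *P4hb* and *Ppib* were highest in fibroblasts. The Control library has no plasma cells to enter this ranking.

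**Figure D1:**
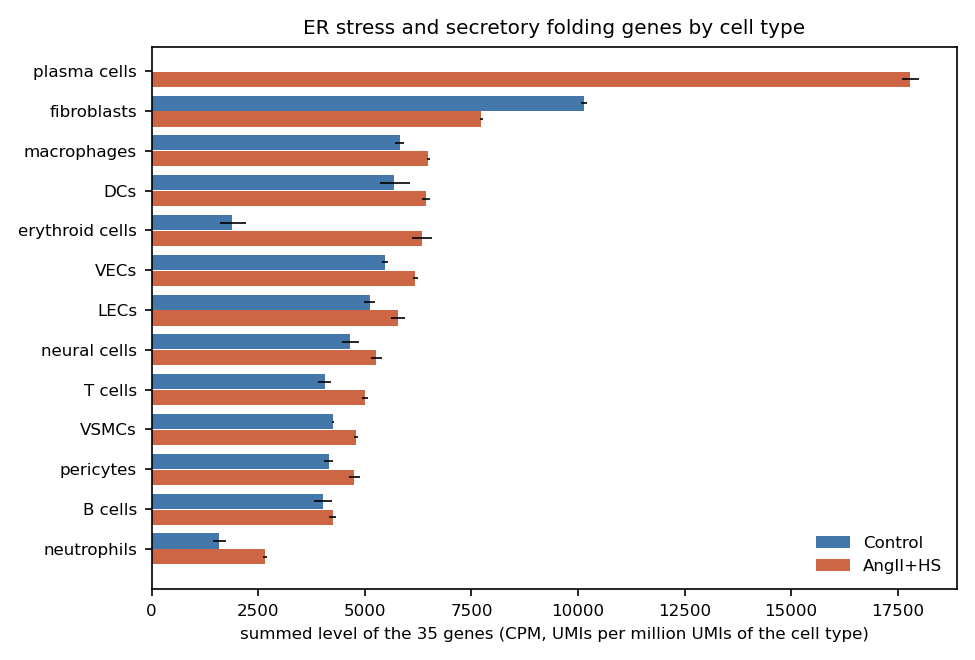
Summed level of the 35 genes in CPM for each cell type (bars from 0), Control in blue and AngII+HS in orange, with 95% Poisson intervals for counting error. Plasma cells of the AngII+HS library stand at 17792 CPM, and fibroblasts are lower in AngII+HS (7728 CPM) than in Control (10143 CPM).

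**Figure D2:**
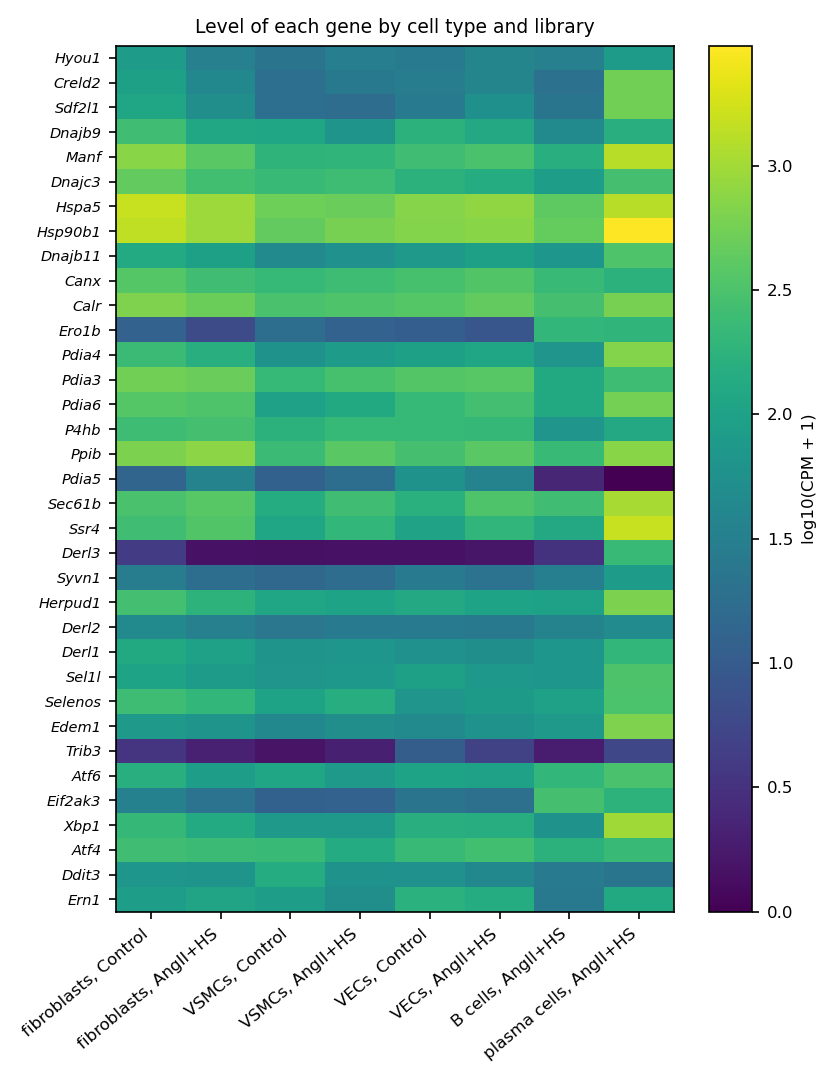
Level of each of the 35 genes (rows, grouped by role) in the 8 combinations of cell type and library described (columns), as log10(CPM + 1). *Hsp90b1* in plasma cells (3047 CPM) and *Hspa5* in Control fibroblasts (1529.7 CPM) are among the brightest fields, and *Derl3* is dark everywhere except in plasma cells (226 CPM).

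In AngII+HS fibroblasts the chaperones of the ER lumen were lower than in Control fibroblasts, while the translocon and several isomerases were not. Of the 35 members, each with at least 20 UMIs, 29 had a lower and 6 a higher level. Of all genes with as many UMIs, 37.7% had a higher level. The median log2 ratio (AngII+HS over Control) was -0.50, beside -0.16 over the 15798 genes with as many UMIs. A fold of at least 1.5 was passed downward by 16 members (21% of all genes) and upward by 1 (12.4% of all genes). Scaling with TMM, which shifts every fibroblast log2 ratio by 0.17 and brings the median of all genes to 0.005, left 10 members past the fold downward and a median of -0.33. It also turned *Pdia6*, *Atf4* and *Ddit3* to the higher side. The share of all genes past the fold with TMM is not given. With double the doublets removed, 1882 Control and 2661 AngII+HS fibroblasts were left. The 5 neutrophil markers summed to 8.49 CPM in Control and 176 in AngII+HS fibroblasts, and the 6 macrophage markers to 18.4 and 64.4 CPM. The 5 VSMC markers were near level at 864 and 859 CPM. The part of doublets and of these markers in the fibroblast values was not tested.

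All 11 chaperones were lower, and 8 of them by 1.5-fold or more. Their summed level was 5801 CPM in Control and 3629 CPM in AngII+HS (log2 ratio -0.68, -0.69 to -0.66). *Hspa5*, the central chaperone and the brake on the sensors, stood at 1529.7 CPM in Control (13880 UMIs) and 944 CPM in AngII+HS (25665 UMIs), a log2 ratio of -0.70 (-0.73 to -0.67). *Hsp90b1*, which folds integrins and Toll-like receptors, stood at 1406 and 931 CPM (log2 ratio -0.59). Several rarer members of the class lay further from 0. *Hyou1*, a nucleotide exchange factor of BiP, had 81.4 and 32.3 CPM and the largest difference of the class (log2 ratio -1.33, -1.48 to -1.19). *Creld2*, an ER-resident stress protein, had 95.8 and 41.3 CPM (-1.21, -1.34 to -1.08). *Sdf2l1*, a cofactor of BiP, had 115 and 51.1 CPM (-1.16), and *Dnajb9*, a BiP cochaperone that also restrains IRE1, had 260 and 119 CPM (-1.12). *Manf*, an ER protein that is secreted under stress, stood at 724 and 385 CPM (-0.91, -0.96 to -0.87), and *Dnajc3*, which binds misfolded protein, at 442 and 267 CPM (-0.73). The remaining chaperones were lower by less than 1.5-fold. *Dnajb11* had a log2 ratio of -0.49, and the lectin chaperones *Canx* and *Calr*, which hold glycoproteins, had -0.49 and -0.37.

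The isomerases and oxidases were divided, with 3 of 7 higher and a median log2 ratio of -0.14. Their sum was 2058 CPM in Control and 2060 CPM in AngII+HS fibroblasts (log2 ratio 0.001, -0.02 to 0.03). *Pdia5*, a disulfide isomerase, was the single member past the fold upward, with 12.7 CPM in Control and 35.1 CPM in AngII+HS (115 and 955 UMIs, log2 ratio 1.47, 1.19 to 1.76). *Ppib*, the proline isomerase cyclophilin B that assists procollagen folding, had 628 and 759 CPM (0.27), and *P4hb*, a subunit of prolyl 4-hydroxylase as well as an isomerase, had 255 and 286 CPM (0.17). The other members of the class lay below 0. *Pdia4* sat just short of the fold at 234 and 156 CPM (-0.58), *Pdia3* and *Pdia6* had -0.18 and -0.14, and the oxidase *Ero1b* had 11.4 and 5.55 CPM (-1.03, -1.40 to -0.66). Both translocon genes were higher, *Ssr4* with 262 and 342 CPM (0.38, 0.32 to 0.45) and *Sec61b* with 307 and 384 CPM (0.32).

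Among the sensors and factors, *Atf6* had 155 and 86.7 CPM (log2 ratio -0.84, -0.93 to -0.74), *Eif2ak3* 33.2 and 20.1 CPM (-0.72), and *Xbp1* 208 and 132 CPM (-0.65, -0.73 to -0.57). *Ern1* was the exception among the sensors, with 85.2 and 106 CPM (0.31), though its direction differed between the clusters given below. Nearer to 0 were *Atf4*, at 257 and 235 CPM (-0.13), and *Ddit3*, at 66.7 and 63.2 CPM (-0.08, -0.21 to 0.06). *Trib3* was rare, with 21 Control and 29 AngII+HS UMIs (-1.12, -1.98 to -0.23). All 8 degradation genes were lower. *Herpud1*, a member of the degradation complex, had 273 and 178 CPM (-0.62), and its ubiquitin ligase *Syvn1* had 28.7 and 17.0 CPM (-0.75). *Derl3* had the lowest ratio of all members on few counts, 27 Control and 13 AngII+HS UMIs (-2.64, -3.72 to -1.63). The other 5 (*Derl1*, *Derl2*, *Sel1l*, *Edem1*, *Selenos*) lay between -0.50 and -0.27.

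**Figure D3:**
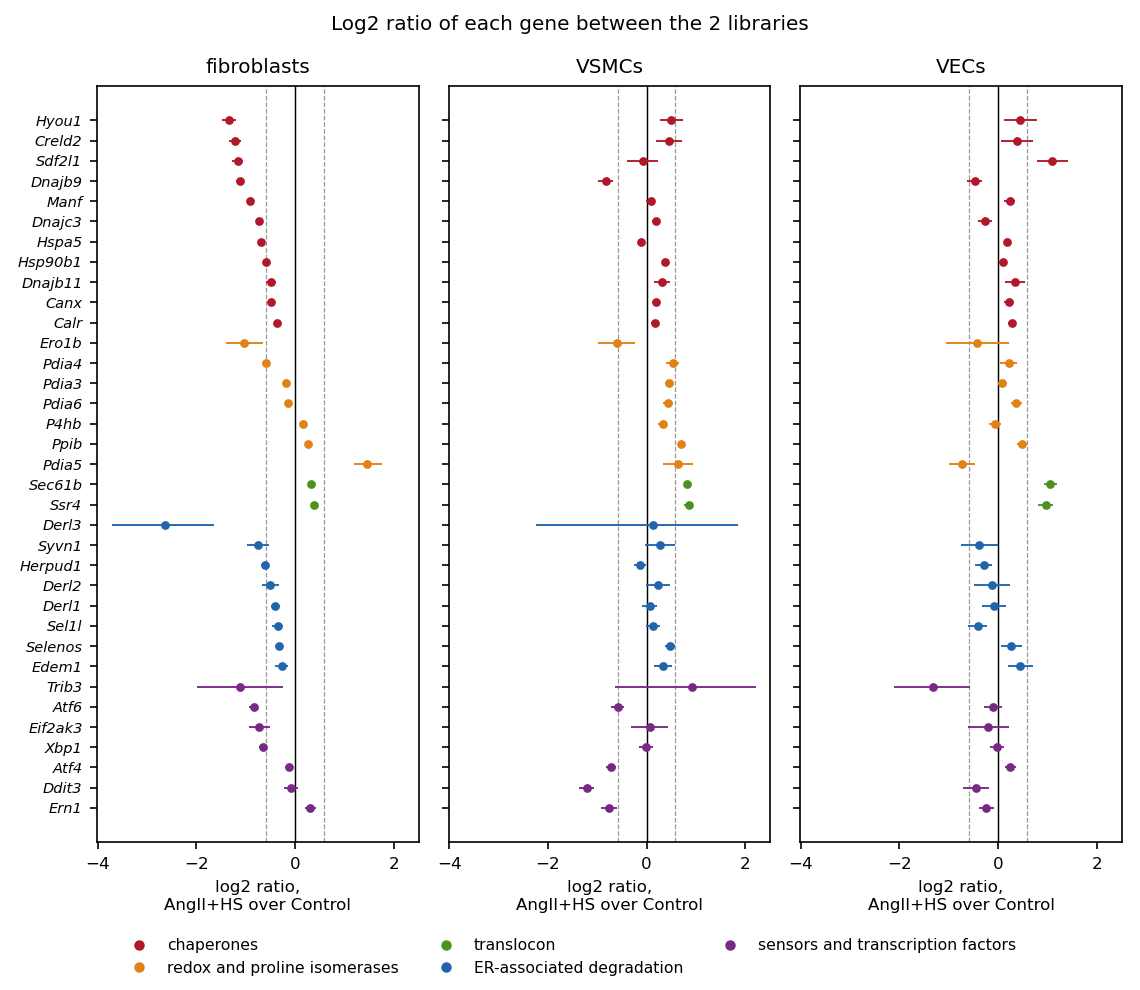
Log2 ratio of each gene, AngII+HS over Control (x axis), in fibroblasts, VSMCs and VECs, with 95% binomial intervals for counting error, genes on the y axis coloured by role, dashed lines at 1.5-fold, and genes under 20 UMIs left out. The 11 chaperones lie left of 0 in fibroblasts, and *Ssr4* and *Sec61b* lie right of 0 in the 3 cell types.

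Members with the ER stress response element were set beside those without it. In fibroblasts, 7 of the 10 with the element and 6 of the 21 without it were at least 1.5-fold lower, with median log2 ratios of -0.71 and -0.33, beside the 21% of all genes. With TMM the counts were 4 of 10 and 3 of 21, and the share of all genes with TMM is not given. Of the 4 members with no promoter sequence, 3 were at least 1.5-fold lower. In VSMCs the medians were 0.24 with and 0.31 without the element, and in VECs 0.19 and -0.02. The 21 include *Herpud1* and *Dnajb11*, which hold ER stress response element II. The groups also differ in role, and all chaperones were lower in fibroblasts. *Hspa5*, *Calr*, *Hsp90b1*, *Canx*, *Dnajc3* and *Creld2* are the chaperones with the element, and *Dnajb9*, *Dnajb11* and *Sdf2l1* those without it. The part of role was not tested. The members were given as ER genes, so these counts describe them and no test was made.

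The fibroblasts fell into 4 clusters, of which 3 held cells of both libraries. They were led by *Ptx3* (816 Control and 1584 AngII+HS cells), *Dio2* (839 and 1164 cells) and *Comp* (266 and 1331 cells). The sum of the 35 genes was lower in AngII+HS in each, with 9783 and 8658 CPM in the *Ptx3* cluster, 10094 and 7000.2 CPM in the *Dio2* cluster, and 11688 and 6376 CPM in the *Comp* cluster. The log2 ratios of these sums were -0.18, -0.53 and -0.87, so the difference between libraries was not the same in the 3 clusters. In the same order the median log2 ratios of the members were -0.31, -0.53 and -0.89. Those of all genes with at least 20 UMIs were -0.22, -0.09 and -0.05. In the *Ptx3* cluster the ratio of the sum was thus no lower than the median of all genes. Of the 33 members with at least 20 UMIs in each cluster, 23 were lower in all 3 and 1 was higher in all 3, beside 29.3% and 16.9% of 11662 genes. *Manf* went from 689 to 486 CPM in the *Ptx3* cluster (log2 ratio -0.50), from 718 to 282 CPM in the *Dio2* cluster (-1.35) and from 881 to 246 CPM in the *Comp* cluster (-1.84). *Sdf2l1* had log2 ratios of -0.86, -1.77 and -2.17, and *Hspa5* of -0.41, -1.06 and -1.08. The gene higher in each was *Pdia5* (1.62, 0.98 and 0.74). *Ern1* had 0.62, -0.47 and 0.43, with intervals that leave out 0. In contrast to the chaperones, *Ddit3* had -0.12, -0.02 and 0.10 with intervals that hold 0. The translocon genes changed direction between clusters, *Ssr4* with 0.77, 0.24 and -0.51 and *Sec61b* with 0.62, -0.06 and -0.23. So did *P4hb* (0.34, -0.04 and -0.25) and *Ppib* (0.48, 0.19 and -0.18). Each of these genes was lower in AngII+HS in the *Comp* cluster, with an interval below 0.

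**Figure D4:**
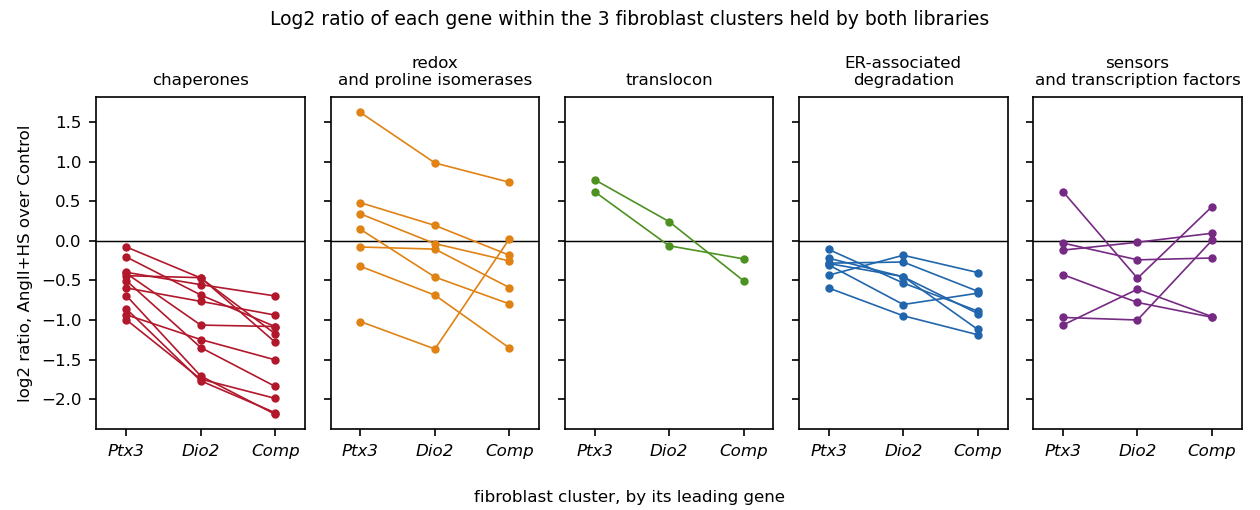
Log2 ratio of each gene (y axis, AngII+HS over Control) within the 3 fibroblast clusters that both libraries hold (x axis, by leading gene), one line per gene and one panel per role, for genes with at least 20 UMIs in each cluster. The chaperone lines lie below 0 throughout, from -0.08 to -0.996 in the *Ptx3* cluster and down to -2.19 in the *Comp* cluster.

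The remaining fibroblast cluster, led by *Prg4* and *Mmp13*, held 166 AngII+HS cells and 0 Control cells, and its sum was 9417 CPM. The mixture of clusters differed between the libraries, and with the 3 shared clusters weighted equally the median log2 ratio of the members was -0.60. An unnamed cluster of low depth that scored highest for fibroblast markers (688 Control and 471 AngII+HS cells, led by *Igfbp6*) had sums of 11954 and 7992 CPM (log2 ratio -0.58).

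Other genes of the secretory pathway, taken from lists, placed the fibroblast values in context. Of 17 genes of collagen folding and modification, 6 were at least 1.5-fold higher and 0 at least 1.5-fold lower, with *Sparc* at 3487 CPM in Control and 9258 CPM in AngII+HS, the lysyl hydroxylase *Plod2* at 218 and 460.0 CPM, *Fkbp10* at 32.3 and 59.2 CPM and the prolyl hydroxylase *P4ha3* at 9.70 and 20.9 CPM. Of 19 further translocon and signal peptidase genes, none passed the fold. Of 14 genes of N-glycosylation, *Dad1* was past the fold upward (164 and 251 CPM) and *Magt1* downward (124 and 63.0 CPM). Among 22 ATF4 targets, 4 were at least 1.5-fold higher and 8 lower, with *Asns* at 5.73 and 11.3 CPM, *Mthfd2* at 51.9 and 26.0 CPM and *Atf5* at 272 and 148 CPM. The lists of 19 degradation genes, 22 genes of COPII transport and 23 further ER chaperones had medians of -0.27, -0.04 and -0.01. Of 22 cytosolic heat shock and dissociation genes, 4 were at least 1.5-fold higher, *Hspa1a* at 254 and 703 CPM among them, and 0 lower.

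VSMCs did not show the lower chaperones. The median log2 ratio of the 35 members was 0.23, beside -0.05 over 15542 genes, and 25 members were higher (46.1% of all genes). Past the 1.5-fold were 5 members upward (12.5% of all genes) and 6 downward (20.7% of all genes). The chaperones summed to 2107 CPM in Control and 2288 CPM in AngII+HS (log2 ratio 0.12, 0.09 to 0.14). *Hspa5* had 525 and 486 CPM (-0.11), and *Hyou1* 20.9 and 29.5 CPM (0.50, 0.27 to 0.73). The translocon genes were higher, *Ssr4* at 112 and 201 CPM (0.85, 0.76 to 0.94) and *Sec61b* at 144 and 256 CPM (0.83). *Ppib* had 239 and 388 CPM (0.70), and *Pdia5* 10.9 and 17.1 CPM (0.65, 0.33 to 0.95). *Trib3* also passed the fold, on 28 and 6 UMIs and with an interval that holds 0 (0.92, -0.65 to 2.22).

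The 6 VSMC members past the fold downward were 4 factors and sensors, 1 cochaperone and 1 oxidase. Both this count and the 5 upward lie near the shares of all genes (20.7% and 12.5%). *Ddit3*, the proapoptotic factor CHOP, had 142 CPM in Control and 61.1 CPM in AngII+HS (log2 ratio -1.21, -1.37 to -1.06), and *Atf4* 227 and 138 CPM (-0.72). *Ern1* had 87.3 and 51.4 CPM (-0.76), *Atf6* 113 and 75.3 CPM (-0.59), *Dnajb9* 112 and 63.4 CPM (-0.83) and *Ero1b* 17.1 and 11.3 CPM (-0.60). The downward count of 6 was 4 with no or double doublet removal, with TMM and with equal weight per cell. With no doublets removed *Ern1* had -0.42 and *Atf6* -0.55, and with double removal *Ero1b* had -0.34. Genes that respond to tissue dissociation were lower alongside them. Of 22 heat shock and dissociation genes, 16 were at least 1.5-fold lower and 0 higher. *Egr1* stood at 4813 CPM in Control and 1641 CPM in AngII+HS, and *Fosb* at 2960.3 and 1261 CPM. *Atf3*, among the ATF4 targets, stood at 2160.1 and 1021 CPM. Of the 22 ATF4 targets, 7 were at least 1.5-fold higher and 6 lower, with a median log2 ratio of 0.20. The part of the dissociation genes in the lower *Ddit3* and *Atf4* was not tested. The 3 VSMC clusters gave *Ddit3* log2 ratios of -0.92, -1.08 and -1.47, so its direction did not rest on 1 cluster. Of the other lists, 7 of 14 N-glycosylation genes (*Rpn1* at 81.9 and 171 CPM) and 9 of 17 collagen folding genes (*Sparc* at 1662 and 4092 CPM) were at least 1.5-fold higher. Fibroblast markers in VSMCs also differed, with a sum of 1569 CPM in Control and 3865 CPM in AngII+HS and 6 of 6 detected in both, and their part in these differences was not tested.

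In VECs the members were close to level, with few exceptions. Of 34 members with at least 20 UMIs (*Derl3* had 6), 18 were higher, near the share of all genes (53.3%). The median log2 ratio was 0.09, beside 0.04 over 13152 genes. With each cell given equal weight the median was -0.07. Past the fold were 3 members upward (17.2% of all genes) and 2 downward (13.8% of all genes). *Sdf2l1* had 26.1 CPM in Control and 55.6 CPM in AngII+HS (113 and 344 UMIs, log2 ratio 1.09, 0.78 to 1.41), *Sec61b* 160 and 335 CPM (1.06, 0.94 to 1.19) and *Ssr4* 99.7 and 194 CPM (0.96). *Pdia5* had 58.9 and 35.4 CPM (-0.73, -1.002 to -0.47), and *Trib3* 42 and 24 UMIs (-1.32, -2.11 to -0.57). *Hspa5* stood at 708 and 807 CPM (0.19), *Xbp1* at 151 and 149 CPM (-0.02, -0.16 to 0.13) and *Ddit3* at 56.1 and 41.2 CPM (-0.45).

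The 2 VEC clusters differed in size of effect, and for some members in direction. In the cluster led by *Fabp4* and *Gpihbp1* (342 Control and 807 AngII+HS cells), *Sdf2l1* had 19.4 and 59.8 CPM (log2 ratio 1.62, 1.10 to 2.20). In the cluster led by *Cytl1* and *Gja5* (496 and 396 cells), it had 30.4 and 47.8 CPM (0.65, 0.22 to 1.09). *Ssr4* had log2 ratios of 1.503 and 0.53 in the same order. *Ern1* changed direction, with -1.11 (-1.32 to -0.91) and 0.69 (0.49 to 0.90). *Xbp1* had 0.03 (-0.17 to 0.24) and -0.41 (-0.65 to -0.16), and *Ddit3* -0.82 (-1.17 to -0.47) and -0.12 (-0.52 to 0.28). Values for all VECs mix these clusters, whose shares differed between the libraries. Of 22 ATF4 targets, 21 of which had at least 20 UMIs, 8 were at least 1.5-fold higher in VECs, with *Slc7a11* at 15.0 and 33.3 CPM, and 1 lower, *Atf3* at 1029 and 555 CPM. Of the 22 heat shock and dissociation genes, 2 were at least 1.5-fold higher and 5 lower. Markers of other cell types in VECs also differed between Control and AngII+HS, with sums of 295 and 587 CPM for the 6 fibroblast markers, 11.1 and 192 CPM for the 5 neutrophil markers and 20.5 and 69.2 CPM for the 6 macrophage markers, and their part in the VEC values was not tested.

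Plasma cells were compared with B cells, their precursors, within the AngII+HS library. Immunoglobulin genes took 35.8% of plasma cell UMIs and 0.684% of B cell UMIs, and the members took 1.78% of all plasma cell UMIs, or 2.77% of those outside immunoglobulin genes. The sum was 17792 CPM in plasma cells and 4246 CPM in B cells (4.19 times, log2 ratio 2.07). Of 33 members with at least 20 UMIs, 29 were higher in plasma cells (25.2% of 9855 genes), and 24 of the 33 by at least 2-fold (8.72% of the same genes). Of the 33, 0 were at least 2-fold lower (38.7% of the same genes). The median log2 ratio was 1.73, beside -0.72 over all genes tested. Totals without immunoglobulin genes raise every ratio by 0.63 and TMM by 0.74, which puts 32 and 33 of the 33 members on the higher side. TMM brings the median of all genes to 0.02, so more of them lie on the higher side too.

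Doublets bear directly on this comparison. Plasma cells had a median of 10549 UMIs, against 1985 in B cells. When double the number of cells was removed as doublets, 139 of the 165 plasma cells and 15 of the 996 B cells left. The 26 plasma cells that remained had a member sum of 8951 CPM, against 4229 CPM in B cells. The median log2 ratio of the members was 0.94, and 16 members were at least 2-fold higher. The median and share of all genes are not given for these 26 cells, and those of the 165 cells need not hold for them. In the 165 plasma cells the 5 B cell markers summed to 638 CPM, against 2012 CPM in B cells, the 6 fibroblast markers to 563 CPM, against 727 CPM in B cells, and the 5 neutrophil markers to 425 CPM, against 229 CPM. The 6 T cell markers summed to 86.5 CPM, against 20.5 CPM in B cells, with 81.4 CPM from a single marker and 2 markers at 0 in plasma cells. The 6 VEC markers summed to 63.7 CPM, against 267 CPM, with 2 at 0 in plasma cells. The part of doublets was not tested further.

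The degradation and translocon genes differed most by class. *Derl3*, a derlin of the degradation pathway, had 398 UMIs in plasma cells and 5 in B cells (226 and 2.28 CPM, log2 ratio 6.64, 5.40 to 8.27), and 5.21 (3.83 to 6.94) in the 26 cells. *Edem1*, which marks misfolded glycoproteins for disposal, had 645 and 76.5 CPM (3.08), and *Herpud1* 631 and 97.9 CPM (2.69). *Sel1l*, the partner of the ligase *Syvn1*, had 327 and 67.4 CPM (2.28). The class as a whole stood at 2475 CPM in plasma cells and 475 CPM in B cells (log2 ratio 2.38). In the translocon, *Ssr4* had 1529.8 and 126 CPM (3.60, 3.42 to 3.78) and *Sec61b* 1069 and 259 CPM (2.04). In the 26 cells the log2 ratios were 1.85 for *Edem1*, 1.86 for *Herpud1*, 1.29 for *Sel1l*, 2.37 for *Ssr4* and 1.58 for *Sec61b*.

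Most chaperones were higher too. *Hsp90b1* had 3047 CPM in plasma cells and 453 CPM in B cells (log2 ratio 2.75, 2.65 to 2.85), *Manf* 1295 and 155 CPM (3.06), and *Hspa5* 1286 and 419 CPM (1.62). *Creld2* and *Sdf2l1* had the largest ratios of the class, with 553 and 19.6 CPM (4.82, 4.38 to 5.30) and 547 and 21.4 CPM (4.67, 4.25 to 5.13). The lectin chaperones stood apart. *Calr* had 593 and 289 CPM (1.04), and *Canx* had 172 and 228 CPM (-0.40, -0.62 to -0.20), a direction that turned to 0.23 with totals without immunoglobulin genes. In the 26 cells, *Hspa5* had a log2 ratio of 0.44 (0.21 to 0.67), *Hsp90b1* 1.54, *Manf* 1.86, *Creld2* 3.30 and *Sdf2l1* 3.51.

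Among the isomerases, *Pdia4* had 679 CPM in plasma cells and 64.2 CPM in B cells (3.403, 3.15 to 3.67), *Pdia6* 562 and 129 CPM (2.12) and *Ppib* 726 and 219 CPM (1.73). *Ero1b*, the oxidase of this class, had 192 and 199 CPM (-0.05, -0.26 to 0.16), and lay at 0.58 with totals without immunoglobulin genes and at -0.79 (-1.30 to -0.31) in the 26 cells. In these cells *Pdia4* had 1.81, *Pdia6* 1.16 and *Ppib* 0.88. *Pdia5* had 0 UMIs in plasma cells and 3 in B cells, so no ratio is given. The factors split. *Xbp1* had 979 and 58.3 CPM (4.07, 3.81 to 4.34), or 2.55 in the 26 cells, and its activating nuclease *Ern1* 131 and 24.6 CPM (2.41), or 1.03 in the 26 cells. *Eif2ak3* had 179 and 284 CPM (-0.67, -0.87 to -0.47), and lay at -0.04 with totals without immunoglobulin genes, at 0.07 with TMM and at -1.002 in the 26 cells. *Atf4* had 222 and 172 CPM (0.37), *Atf6* 300 and 200 CPM (0.58), *Ddit3* 38 and 57 UMIs (-0.26, -0.90 to 0.35) and *Trib3* 8 and 2 UMIs (2.32, -0.004 to 5.59). *Ddit3* lay at 0.37 with totals without immunoglobulin genes, at 0.47 with TMM and at -0.11 in the 26 cells.

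**Figure D5:**
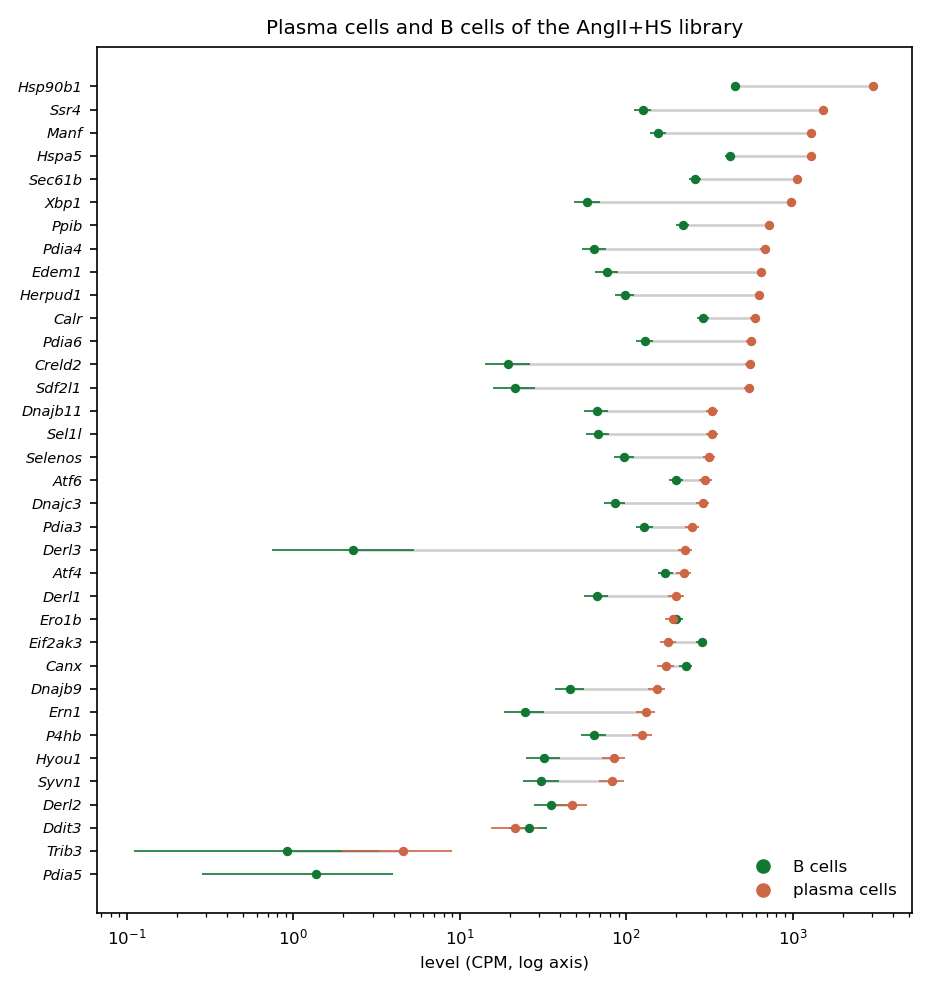
Level of each gene in CPM (log axis) in B cells (green) and plasma cells (orange) of the AngII+HS library, with 95% Poisson intervals for counting error, genes ordered by their level in plasma cells and levels of 0 not drawn. *Derl3* spans 2.28 to 226 CPM and *Xbp1* 58.3 to 979 CPM. *Ero1b*, *Canx*, *Eif2ak3* and *Ddit3* do not lie higher in plasma cells on this scale of all UMIs.

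Plasma cells varied among themselves. The share of a cell's UMIs in the 35 genes had a lower quartile of 0.965%, a median of 1.44% and an upper quartile of 2.47%, against 0.296%, 0.402% and 0.529% in B cells. In fibroblasts the 3 values were 0.746%, 1.001% and 1.31% in Control and 0.545%, 0.701% and 0.873% in AngII+HS. Beyond the members, 14 of 19 translocon and signal peptidase genes were at least 2-fold higher in plasma cells than in B cells, with *Sec11c*, a signal peptidase subunit, at 1398 and 143 CPM. Of 22 COPII genes 10 were, the cargo receptor *Lman1* at 298 and 20.5 CPM among them, and of 19 further degradation genes 4 were, with *Edem2* at 228 and 22.3 CPM. Among 22 ATF4 targets, 20 had at least 20 UMIs and 15 were at least 2-fold higher. *Chac1* had 209 UMIs in plasma cells and 1 in B cells (log2 ratio 8.03, 5.53 to 13.34), and the amino acid transporter subunit *Slc3a2* 328 and 90.2 CPM. Of the 17 collagen folding genes, 11 had at least 20 UMIs and 0 were 2-fold higher.

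In the cell types not described above, the sum of the 35 genes was higher in AngII+HS than in Control, by log2 ratios from 0.08 in B cells (-0.002 to 0.16) to 0.75 in neutrophils (0.61 to 0.89), and by 1.75 in the few erythroid cells (38 Control and 109 AngII+HS cells). Macrophages had 0.16 (0.13 to 0.18) and T cells 0.30 (0.24 to 0.36). The median log2 ratio of the members and that of all genes were 1.74 and 1.67 in erythroid cells, so most of that shift was shared by all genes. They were 0.81 and 0.22 in neutrophils, 0.36 and 0.05 in T cells and 0.19 and -0.15 in macrophages. In B cells they were 0.08 and -0.02, and in pericytes 0.13 and 0.10. Fibroblasts were the cell type in which the sum was lower.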

How the data were processed

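The deposited files hold raw UMI counts per gene and cell barcode, which the authors made with Cell Ranger (version 8.0.1 in the file headers) for barcodes called as cells and left without normalization. The submitters' notes name mm10 and the methods GRCm39, and gene symbols were used as given. Cells needed 500 UMIs, 200 genes and less than 20% of UMIs from mitochondrial genes. Doublets were ranked by Scrublet (scanpy 1.11.5) and removed at 0.8% per 1000 cells, in place of DoubletFinder. Libraries were integrated on 2000 variable genes without the 35 members, with 30 components and resolution 0.8, in R 4.3.3 with Seurat 5.3.0, Matrix 1.6.5 and SeuratObject 5.2.0. A cluster took the name of the best-scoring marker list when 3 of its markers reached 10% of cells and its 10 leading genes did not favour another type.

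UMIs were summed per type and library as CPM, and 0.5 UMIs were added for medians and folds over lists. Genes needed 20 UMIs in the 2 sums. Members past 1.5-fold (2-fold for plasma over B cells) were named, up to 12 per direction by summed UMIs, others with their values. Of each further list, up to 4 genes with 200 UMIs or more and the largest ratios were eligible. *Derl3*, *Creld2* and *Sdf2l1* in plasma cells, and *Syvn1*, *Ero1b*, *Trib3* and *Derl3* in fibroblasts, fall outside the 12 and were chosen after their values were seen. *Sel1l* and *Ern1* in plasma cells also fall outside the 12. The members and lists were chosen with earlier results of these data known. No test was made, as each condition had 1 library. Ratios and intervals were tested on fibroblast counts simulated with known folds and counting error alone. That check therefore does not cover variation between cells, animals or libraries.

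Alternatives were no or double doublet removal, a stricter cell filter (1000 UMIs, 500 genes, 10% mitochondrial UMIs), merging without integration, resolutions 0.4 and 1.2, clustering with the members, totals without mitochondrial or immunoglobulin genes, TMM (edgeR 4.0.16, limma 3.58.1), cells weighted equally, free RNA subtracted and no UMI minimum. Counting the shallow unnamed cluster as fibroblasts and weighting the shared fibroblast clusters equally were added after the data were seen. Python 3.11.15, numpy 2.4.6, scipy 1.17.1, pandas 2.3.3 and matplotlib 3.10.9 were used.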

Additional observations from a re-analysis of the deposited data

Results flagged for a closer look

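In 3 members, 1 cell type lay at least 1.5-fold higher in AngII+HS than in Control and another at least 1.5-fold lower. The difference between cell types was not tested, since each condition has 1 library. *Pdia5* had log2 ratios of 1.47 in fibroblasts and 0.65 in VSMCs, and -0.73 in VECs. *Sdf2l1* had -1.16 in fibroblasts and 1.09 in VECs. *Trib3* had -1.12 in fibroblasts and -1.32 in VECs, and 0.92 in VSMCs, where 6 AngII+HS UMIs and an interval that holds 0 stand behind it.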

How the results depend on the processing

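No paired analysis was possible because each condition has 1 library, and for the same reason no replicate could be left out. Of 149 medians and counts recomputed under the alternatives, 139 stayed close. For a median this means within the typical counting margin of a single member, and for a count within 1.5 times. Several alternatives could change little. Resolution 1.2 left the same 5062 and 669 VSMCs and 838 and 1203 VECs, and all 35 members passed the UMI minimum in fibroblasts. This tally and that of single members below therefore do not measure how firm the results are. The median log2 ratio of the members in fibroblasts, -0.50 as reported, was -0.62 with double the doublets removed, -0.64 with equal weight per cell, -0.33 with TMM and -0.60 with the shared clusters weighted equally. Double doublet removal left 1882 of 1921 Control and 2661 of 4245 AngII+HS fibroblasts. TMM left 10 members at least 1.5-fold lower in place of 16, because it shifts every ratio by 0.17. The median in VECs, 0.09, changed sign to -0.072 with equal weight per cell, and the cause was not tested. The median of plasma over B cells, 1.73, was 0.94 with double the doublets removed, which left 26 of 165 plasma cells, 2.36 with totals without immunoglobulin genes, 2.47 with TMM and 1.98 with free RNA subtracted. The count at least 2-fold higher was 24, and 16 with double the doublets removed, for which the share of all genes is not given. The count at least 1.5-fold lower in VSMCs, 6, was between 4 and 8. Single members were recomputed only where they were past 1.5-fold in fibroblasts, VSMCs or VECs. Of these 430 ratios, 369 stayed within their counting interval, 61 moved beyond it and 0 changed sign. As they were chosen for ratios far from 0, this does not speak for the other members. Some of those did change sign, *Pdia6*, *Atf4* and *Ddit3* in fibroblasts with TMM among them. In plasma over B cells *Canx*, *Ero1b*, *Eif2ak3* and *Ddit3* did so with other scalings. Depth limits *Trib3*, *Derl3* and *Ero1b*, each with under 50 UMIs in at least 1 sum of fibroblasts, VSMCs or VECs.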
